A study of Mus musculus with 12 samples.

Results

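The transcripts described here are 9 genes that are commonly used to normalize expression measurements: Actb, Gapdh, Hprt, Gusb, Tbp, Ppia, Pgk1, Tubb5 and Ywhaz. They were found by gene symbol in the annotation of the array's probe sets, in which probe sets other than controls name 18193 different genes alone. Of the 9 genes, 7 are among these, and Gapdh and Ppia are named together with other symbols. The 9 genes were read by 29 of the 45101 probe sets on each array. Of these, 19 name 1 of the genes alone, 4 name Gapdh or Ppia together with a pseudogene or another gene model, and 6 are the manufacturer's control probe sets for Actb and Gapdh, which are given apart. Each gene was followed through its brightest probe set that names it alone, called its representative below. Gapdh and Ppia have none, so their brightest shared probe set stands in for them and is not counted among the 7 genes with a representative.

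The series compared ways of amplifying nanogram amounts of total RNA, and its 12 mouse arrays fell into 4 groups of 3. The groups were kidney RNA from Ambion at 10 ng and a universal mouse reference RNA at 0.3, 3 and 10 ng. The maker of the reference RNA is spelt Strategene in the labels, and such RNA is known as a pool from cell lines. Every sample title carries the code pRS, which the labels do not explain, and no genotype, strain or age is given. The labels do not say whether the 3 arrays of a group came from separate animals, RNA lots or amplifications, and every p-value below therefore rests on the scatter of 3 arrays a group, which may be technical.

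A normalization gene is chosen because its transcript is made in nearly every cell, so that its level can stand for the amount of RNA put into an assay. The genes used this way come from unrelated housekeeping functions, which include the cytoskeleton, glycolysis, nucleotide salvage, protein folding and transcription. None of them is level in every tissue, and for that reason several are usually compared before 1 is chosen.

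All arrays shared a 2% trimmed mean of 500, which sets the unit of every signal here. The bright end was not shared: the 99th percentile of an array was between 9482 and 9711 in kidney, between 12164 and 12587 in the reference at 0.3 ng, between 10357 and 11029 at 3 ng and between 10213 and 10868 at 10 ng. The median SD of log2 signals among the 3 arrays of a group was 0.256 in kidney and 0.687, 0.308 and 0.242 in the reference at 0.3, 3 and 10 ng. All 10 markers of kidney tubules rose in kidney against the reference at 10 ng, among them the urinary protein gene Umod with a mean of 10850 ± 53.3 in kidney and 14.6 ± 9.15 in the reference (SD, n = 3 each). All 9 tested markers of dividing cells fell, among them the mitotic kinase gene Cdk1 with 100 ± 3.66 in kidney and 3534 ± 249 in the reference. The number of arrays limits the precision of every value below.

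At equal input, 4 of the 7 normalization genes with a representative fell in kidney against the reference and 0 rose. The 4 were Gusb, Tubb5, Hprt and Pgk1, while Tbp, Actb and Ywhaz did not pass the test, and neither did the shared probe sets of Gapdh and Ppia. A gene is called here when its Benjamini-Hochberg adjusted p from limma, over 27022 tested probe sets, lies under 0.05. By the same rule 62.7% of 12820 tested genes were called, 35.6% lower and 27.1% higher in kidney. The median log2 fold change of the 7 genes was -0.74, against -0.34 for all tested probe sets. These medians are of unlike units, 1 representative a gene against all tested probe sets, and no median over tested genes was taken. The general shift of all tested probe sets moved with the scaling, to -0.09 with arrays centred on their medians and to -0.22 with quantile normalization. In bulk RNA, fewer cells of a type and less RNA per cell cannot be told apart.

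**Figure D1:**
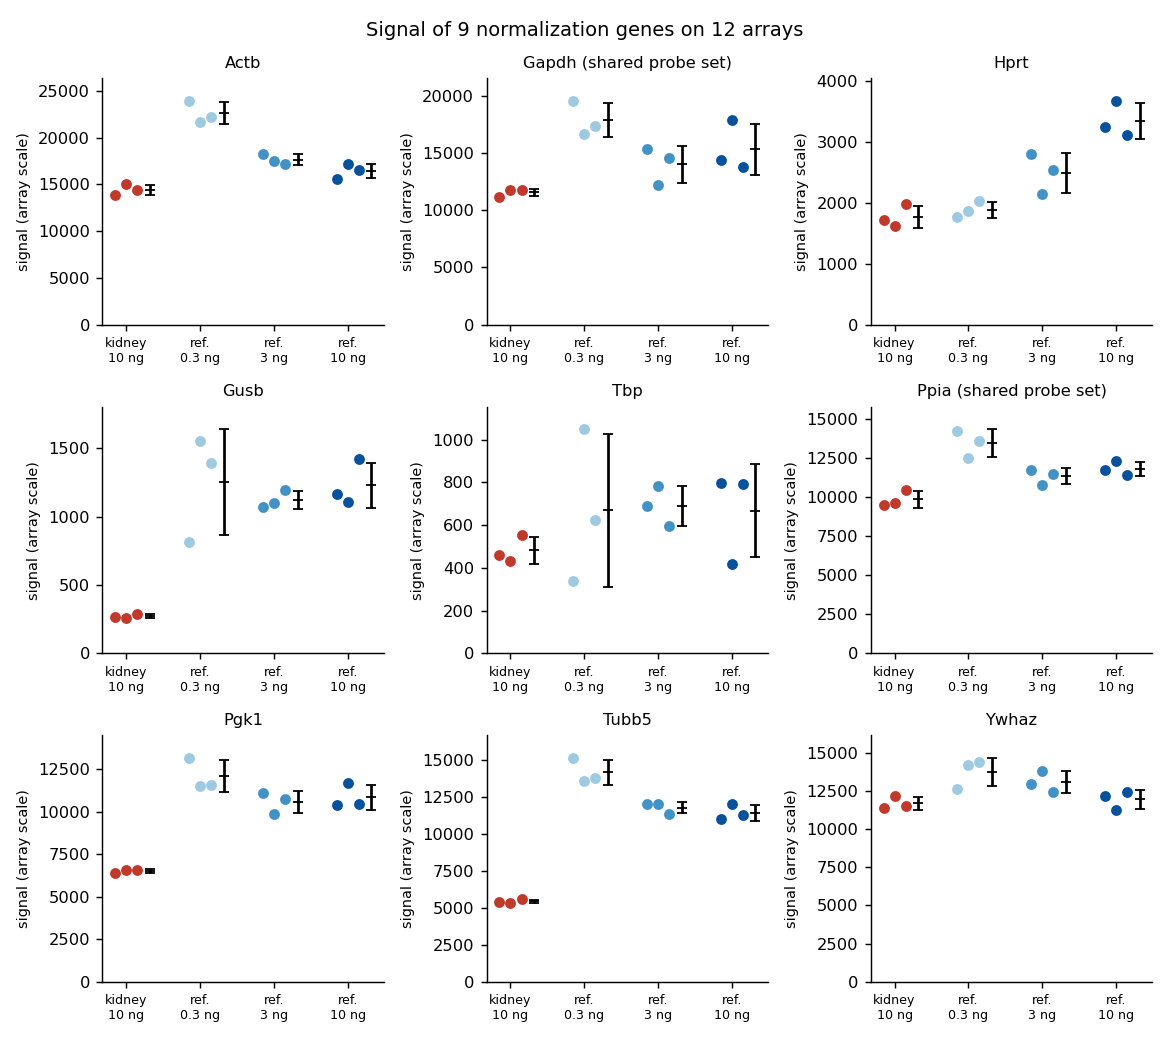
Signal of each gene's representative or brightest shared probe set on every array, on a linear axis from 0, with kidney at 10 ng and then the reference at 0.3, 3 and 10 ng along the horizontal axis. Points are arrays, and bars give the mean and SD of 3. Gusb, Tubb5, Hprt and Pgk1 are lower on every kidney array than on every reference array at 10 ng. So are Actb, Gapdh and Ppia, by smaller differences that were not called. Hprt is lower at 0.3 and 3 ng than at 10 ng.

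Actb encodes beta-actin, a cytoplasmic actin of the cell's microfilaments. Its representative, 1419734_at, read 13923, 15002 and 14362 in kidney, against 15633, 17145 and 16541 in the reference at 10 ng. The groups did not overlap, yet the log2 fold change of -0.19 ± 0.12 (SE) was not called (adjusted p = 0.21 by limma, 95% interval -0.48 to 0.10), and it turned to 0.06 with median-centred arrays and to 0.12 with quantile normalization. The other Actb probe set, 1436722_a_at, read 2823, 3087 and 2654 in kidney, against 6051, 6589 and 5884 in the reference. It fell by 1.11 on the log2 scale (limma adjusted p = 0.000873), so the answer for Actb depends on the probe set. When both probe sets were averaged and the fit run at gene level, Actb was called with -0.65 (adjusted p = 0.00554 by limma).

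The ratio of the dimmer to the brighter Actb probe set does not depend on the scaling of an array. It was 0.203, 0.206 and 0.185 in kidney, against 0.387, 0.384 and 0.356 in the reference at 10 ng. The groups were apart, with a log2 difference of -0.93 ± 0.06 (SE) and a two-sided exact permutation p of 0.1, the smallest that 3 arrays against 3 allow. This ratio, and those of the other genes below, were chosen after their values were seen.

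Of 4 other actin genes tested, 1 rose, 2 fell and 1 was not called in kidney, where 62.7% of all tested genes were called. Cardiac actin Actc1 averaged 766 ± 81.9 in kidney and 61.7 ± 3.52 in the reference, with a log2 fold change of 3.55 (limma adjusted p = 2.47e-05). The smooth muscle actin genes Acta2 and Actg2 both fell, with log2 fold changes of -1.81 and -2.44.

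Tubb5 encodes a beta-tubulin of microtubules. Its representative, 1455719_at, read 5399, 5340 and 5579 in kidney, against 11011, 12004 and 11257 in the reference. It fell by 1.07 on the log2 scale with an SE of 0.11 (limma adjusted p = 0.000674), and no kidney array came near a reference array. Its second probe set, 1416256_a_at, read 575, 583 and 624 in kidney, against 5141, 5422 and 5273 in the reference, and fell by 3.14 (limma adjusted p = 2.12e-05), the largest difference among the 18 tested probe sets that name 1 of the genes alone. The signal of 1416256_a_at over that of 1455719_at was 0.107, 0.109 and 0.112 in kidney, against 0.467, 0.452 and 0.468 in the reference (exact permutation p = 0.1, the smallest possible).

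Of 5 other beta-tubulin genes tested, 4 fell, 0 rose and 1 was not called, where 35.6% of all tested genes fell. Their median log2 fold change was -0.59. Tubb6, Tubb4b and Tubb2b had log2 fold changes of -4.62, -0.59 and -0.47, while Tubb4a lay under the background level of 33.65 on all 3 kidney arrays and was at least 2.7-fold lower in kidney.

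Gapdh encodes the glycolytic enzyme glyceraldehyde-3-phosphate dehydrogenase. Its bright shared probe set, 1418625_s_at, also names Gapdh-ps15 and 3 further symbols, so the signal cannot be given to Gapdh alone. It read 11179, 11722 and 11773 in kidney, against 14335, 17856 and 13767 in the reference at 10 ng. Kidney was lower on every array, but the log2 fold change of -0.40 ± 0.15 (SE) was not called (limma adjusted p = 0.0596, 95% interval -0.76 to -0.03). It was -0.15 with median-centred arrays, -0.11 with quantile normalization and -0.28 without reference replicate 2. A dimmer shared probe set, 1447999_x_at, overlapped between the groups with 811 ± 27.0 in kidney and 900 ± 211 in the reference (-0.12, limma adjusted p = 0.638), and 1457612_at, which lay under background on 5 of 12 arrays, was not tested.

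Pgk1 encodes phosphoglycerate kinase, a later enzyme of the same pathway. Its representative, 1417864_at, read 6359, 6565 and 6538 in kidney, against 10363, 11674 and 10434 in the reference, and fell by 0.74 on the log2 scale with an SE of 0.12 (limma adjusted p = 0.00325). The kidney arrays were close together and all below the reference, and the call held at -0.49 with median-centred arrays (limma adjusted p = 0.0225). The other Pgk1 probe sets fell too, with log2 fold changes of -0.81 for 1439435_x_at and -0.66 for 1438640_x_at (limma adjusted p = 0.00213 and 0.0331). The call of 1438640_x_at was lost under several alternatives, among them the fit without any 1 of 5 of the 6 arrays, where its limma adjusted p lay between 0.0598 and 0.0982.

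Of 14 other glycolysis genes tested, 8 fell, 2 rose and 4 were not called in kidney, where 35.6% of all tested genes fell and 27.1% rose. Their median log2 fold change was -0.64. Hexokinase gene Hk2 averaged 100 ± 36.8 in kidney and 2564 ± 223 in the reference, a log2 fold change of -4.68. The muscle enolase gene Eno3 and the platelet phosphofructokinase gene Pfkp also fell (-2.14 and -1.75). Ldhb, a lactate dehydrogenase subunit gene, went the other way with 10181 ± 227 in kidney and 1357 ± 176 in the reference (log2 fold change 2.91, limma adjusted p = 4.72e-05).

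Hprt encodes hypoxanthine-guanine phosphoribosyltransferase, which returns purine bases to the nucleotide pool. Its only probe set, 1448736_a_at, read 1710, 1610 and 1974 in kidney, against 3240, 3668 and 3106 in the reference at 10 ng. It fell by 0.92 on the log2 scale with an SE of 0.14 (limma adjusted p = 0.00285), and the highest kidney array stayed below the lowest reference array. The 9 other purine salvage genes tested split into 3 that rose, 5 that fell and 1 not called, where 62.7% of all tested genes were called. Pnp, the purine nucleoside phosphorylase gene, rose by 1.90, Gda by 1.71 and Xdh by 1.30 on the log2 scale, while the AMP deaminase gene Ampd2 fell by 1.48.

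Gusb encodes beta-glucuronidase, a lysosomal hydrolase, and had the largest fall of the representatives. Its representative, 1448124_at, read 266, 257 and 289 in kidney, against 1162, 1110 and 1418 in the reference. It fell by 2.16 on the log2 scale with an SE of 0.15 (limma adjusted p = 0.000134). The second Gusb probe set, 1430332_a_at, was much dimmer and overlapped, with 85.2, 107 and 164 in kidney, against 106, 153 and 118 in the reference, and its log2 fold change of -0.11 was not called (limma adjusted p = 0.745) and changed sign with either other scaling. The ratio of the brighter to the dimmer probe set was 3.12, 2.41 and 1.76 in kidney, against 11, 7.27 and 12 in the reference (exact permutation p = 0.1, the smallest possible).

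Other lysosomal hydrolase genes ran mostly opposite to Gusb. Of 22 tested, 13 rose, 4 fell and 5 were not called in kidney, where 27.1% of all tested genes rose and 35.6% fell. Their median log2 fold change was 0.70, beside -0.34 over all tested probe sets, a median not taken over genes. The fucosidase gene Fuca1 averaged 8865 ± 141 in kidney and 2028 ± 113 in the reference (log2 fold change 2.13, limma adjusted p = 6.55e-05). The mannosidase gene Man2b1 rose by 1.78 and Naglu by 1.51, while the alpha-galactosidase gene Gla fell by 1.83.

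Tbp encodes the TATA-binding protein, which helps to place RNA polymerases at promoters. Its representative, 1426469_a_at, read 458, 434 and 554 in kidney, against 795, 418 and 792 in the reference at 10 ng. Reference replicate 2 lay below all 3 kidney arrays and the groups overlapped, so the log2 fold change of -0.42 ± 0.29 (SE) was not called (limma adjusted p = 0.257, 95% interval -1.13 to 0.30). Without that array the value was -0.72 and was called (limma adjusted p = 0.0197), while with all arrays it was -0.17 after median centring. The second Tbp probe set, 1426470_at, lay under background on 11 of 12 arrays and was not tested. Of 19 other general transcription factor genes tested, 11 fell, 0 rose and 8 were not called, where 35.6% of all tested genes fell. Their median log2 fold change was -0.77, and Gtf2e2, Taf5, Gtf2f1 and Taf2 had log2 fold changes of -1.75, -1.48, -1.38 and -1.25.

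Ppia encodes cyclophilin A, a prolyl isomerase that assists protein folding. Its only probe set, 1417451_a_at, also names Gm9234. It read 9486, 9652 and 10476 in kidney, against 11774, 12293 and 11412 in the reference. Kidney was lower on every array, and the log2 fold change of -0.26 ± 0.12 (SE) was not called (limma adjusted p = 0.103, 95% interval -0.55 to 0.03). It was -0.02 with median-centred arrays and -0.12 with quantile normalization. Of 7 other cyclophilin genes tested, 2 rose, 3 fell and 2 were not called, where 62.7% of all tested genes were called. The mitochondrial cyclophilin gene Ppif rose by 1.64 on the log2 scale, and Ppil1, Ppie and Ppig fell (-1.19, -1.05 and -0.67).

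Ywhaz encodes 14-3-3 zeta, an adaptor that binds phosphorylated proteins. Its representative, 1436971_x_at, read 11359, 12199 and 11512 in kidney, against 12148, 11261 and 12425 in the reference at 10 ng. The groups overlapped, and the log2 fold change of -0.03 ± 0.12 (SE) was the smallest of the 7 genes (limma adjusted p = 0.837, 95% interval -0.32 to 0.26). With median-centred arrays, and likewise with quantile normalization, it became 0.21. The interval does not show that the 2 RNAs hold the same level, since it allows a difference of up to 0.32 on the log2 scale.

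The 7 Ywhaz probe sets did not give 1 answer. In kidney against the reference, 1416102_at averaged 5840 ± 300 and 8446 ± 490 and fell by 0.53 on the log2 scale (limma adjusted p = 0.0118), while 1416103_at averaged 6029 ± 276 and 4767 ± 408 and was not called at 0.34 (limma adjusted p = 0.0613). The first call was lost with median-centred arrays (limma adjusted p = 0.12), and the second probe set was called without reference replicate 2 (0.41, limma adjusted p = 0.0432) or with median-centred arrays (0.59, limma adjusted p = 0.0156). The ratio of 1416103_at to 1416102_at was 1.04, 1.02 and 1.03 in kidney, against 0.556, 0.581 and 0.554 in the reference (exact permutation p = 0.1, the smallest possible). The other 5 probe sets lay between -0.36 and 0.11 and were not called. Of 6 other 14-3-3 genes tested, 3 fell (Ywhah -0.61, Ywhag -0.45 and Ywhae -0.37), 0 rose and 3 were not called. Of all tested genes, 35.6% fell. The values of Ywhag and Ywhae (limma adjusted p = 0.0255 and 0.0418) lay near the median of all tested probe sets, -0.34, which moved with the scaling.

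**Figure D2:**
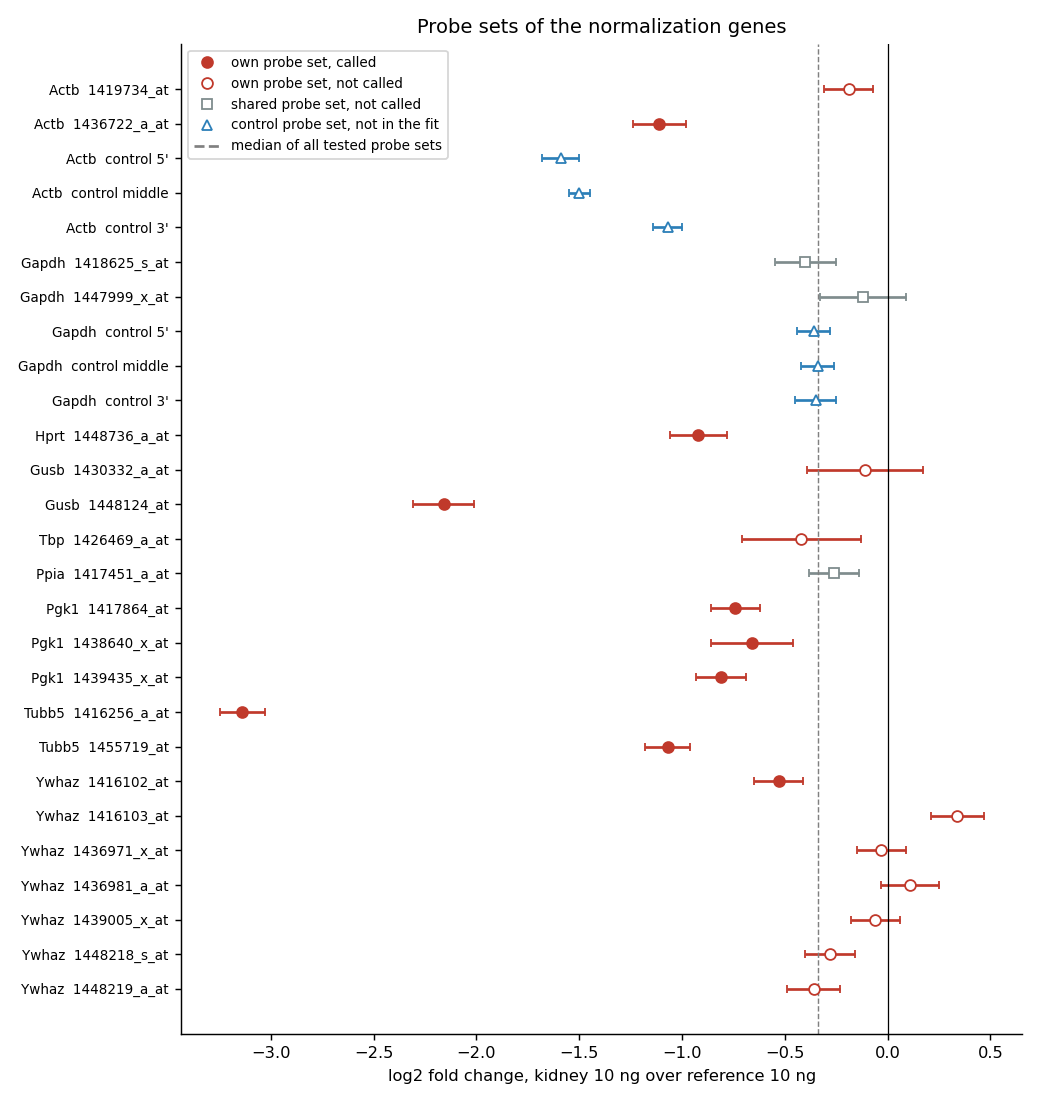
Log2 fold change of each tested probe set of the 9 genes, and of the control probe sets, in kidney over the reference at 10 ng, with bars for the SE (n = 3 arrays a group). Filled circles are called, the dashed line is the median of all tested probe sets at -0.34, and the control probe sets were not in the fit. Probe sets of Actb, Gusb, Tubb5 and Ywhaz lie apart, whereas those of Pgk1 lie between -0.81 and -0.66.

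Counted over probe sets, 9 of the 18 tested that name 1 gene alone fell, 0 rose and 9 were not called. The same rule called 60.1% of all tested probe sets, 37.2% lower and 22.9% higher. The share of these 18 that were called, like that of the 7 genes, is near the background and does not set the genes apart. A further 20 tested genes that are also used as references held 4 that rose, 9 that fell and 7 not called, with a median of -0.14. Of all tested genes, 62.7% were called. Among them the mitochondrial enzyme genes Alas1 and Sdha rose by 2.25 and 1.45, and the translation genes Eif4a2 and Rplp0 fell (log2 fold changes of -1.25 and -1.24).

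The manufacturer's control probe sets read Actb and Gapdh at the 5′ end, in the middle and at the 3′ end of the transcript. The Actb 3′ control read 3330, 3552 and 3014 in kidney, against 6884, 7193 and 6732 in the reference at 10 ng, a log2 difference of -1.07. The middle control averaged 962 ± 61.1 in kidney and 2727 ± 25.2 in the reference (-1.5), and the 5′ control 615 ± 57.7 and 1853 ± 121 (-1.59). All 3 Actb controls were lower in kidney on every array, by about as much as 1436722_a_at or more. The 3 Gapdh controls differed by -0.35, -0.34 and -0.36 at the 3′ end, the middle and the 5′ end, close to the -0.40 of 1418625_s_at.

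The Actb 3′ to 5′ ratio was 5.50, 5.25 and 5.36 in kidney, against 3.94, 3.62 and 3.68 in the reference at 10 ng. Kidney was higher on every array, with a log2 difference of 0.51 ± 0.04 (SE), an exact permutation p of 0.1, the smallest possible, and 0.533 after adjustment over 16 such tests. The Gapdh 3′ to 5′ ratio was 1.13 ± 0.00443 in kidney and 1.13 ± 0.0241 in the reference at 10 ng (SD, n = 3 each), and the groups overlapped. Across the reference inputs the Actb 3′ to 5′ ratio averaged 3.86, 3.70 and 3.75 at 0.3, 3 and 10 ng. The Gapdh 3′ to 5′ ratio averaged 1.16, 1.11 and 1.13. For both, the arrays overlapped at each pair of inputs. Of the 3′ to middle ratios across inputs, only that of Gapdh at 0.3 against 3 ng was apart. The part of these transcript-end ratios in the Actb probe set differences was not tested.

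**Figure D3:**
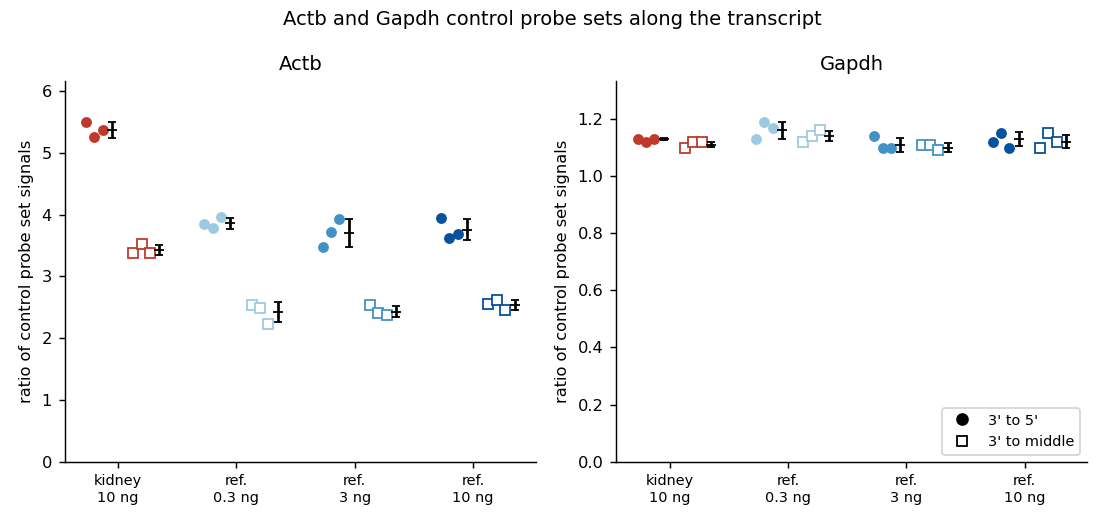
Ratio of the 3′ control probe set to the 5′ one (filled circles) and to the middle one (open squares) for Actb and Gapdh on every array, on linear axes from 0. Bars give the mean and SD of 3 arrays. The Actb ratios in kidney lie above those of every reference array, and the Gapdh ratios lie between 1.09 and 1.19 in all groups.

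Within the reference RNA, a smaller input moved none of the 7 genes past the test. At 3 against 10 ng, 0 of 7 were called by limma and 0% of all tested genes, and 1 of the 7, Hprt, had an unadjusted p under 0.05, as did 1085 of all 12820. At 0.3 against 10 ng, 0 of 7 were called against 0.554% of all tested genes, and Hprt alone had an unadjusted p under 0.05, as did 1714 of all 12820. At 0.3 against 3 ng, 0 of 7 were called against 0.172%, and the unadjusted level was passed by 0 of 7 and by 1395 of all 12820. The comparisons against 10 ng share those 3 arrays, and a count of 0 does not show that the levels were equal, since 0.3 ng arrays varied more.

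Hprt was the gene with the largest difference between inputs. It read 1771, 1858 and 2022 at 0.3 ng, 2795, 2145 and 2528 at 3 ng and 3240, 3668 and 3106 at 10 ng, and the 3 inputs did not overlap. The log2 fold change was -0.82 ± 0.22 (SE) at 0.3 against 10 ng (limma adjusted p = 0.17, 95% interval -1.36 to -0.29) and -0.43 ± 0.16 at 3 against 10 ng (limma adjusted p = 0.469). With all 12 arrays in 1 fit the first of these was called (limma adjusted p = 0.0263), and over its other alternatives the adjusted p lay between 0.121 and 0.507. The value was -0.83 with quantile normalization but -0.39 with median-centred arrays.

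Actb ran opposite to Hprt on the deposited scale. It read 23937, 21707 and 22209 at 0.3 ng, 18289, 17500 and 17157 at 3 ng, and 15633, 17145 and 16541 at 10 ng. All arrays at 0.3 ng were above all those at 3 ng. Those at 3 ng were only narrowly above all those at 10 ng, with 17157 as the lowest against 17145 as the highest. By rank on the array, 3 ng overlapped both other inputs. The log2 fold change at 0.3 against 10 ng, 0.46 ± 0.21 (SE), was not called (limma adjusted p = 0.369). The value depended on the scaling: it was 0.15 with quantile normalization and 0.89 with median-centred arrays (limma adjusted p = 0.785 and 0.187). The bright end of the signals was higher, and the median signal lower, on the 0.3 ng arrays than on those at 10 ng.

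Gapdh, Ppia, Pgk1, Tubb5 and Ywhaz, all bright, also averaged more at 0.3 than at 10 ng, by less than Actb. Their log2 fold changes at 0.3 against 10 ng were 0.23, 0.18, 0.16, 0.31 and 0.20, with limma adjusted p between 0.528 and 0.759. With quantile normalization those of Gapdh, Ppia, Pgk1 and Ywhaz turned to between -0.09 and -0.07, and that of Tubb5 was 0.04. With median-centred arrays all 5 went the other way, to between 0.59 for Pgk1 and 0.74 for Tubb5, and were not called (limma adjusted p between 0.21 and 0.268). Their size and, for 4 of them, their sign at 0.3 ng therefore rest on how the arrays are scaled.

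The dimmer Gusb and Tbp had no clear direction with input. Gusb read 814, 1550 and 1390 at 0.3 ng, 1070, 1101 and 1195 at 3 ng, and 1162, 1110 and 1418 at 10 ng. Tbp read 338, 1049 and 624 at 0.3 ng, 690, 784 and 598 at 3 ng, and 795, 418 and 792 at 10 ng. The 0.3 ng arrays spread most for both and overlapped the other inputs, and the 95% interval of the log2 fold change at 0.3 against 10 ng reached from -0.82 to 0.78 for Gusb and from -1.32 to 1.16 for Tbp. Among 105 further genes of the lists named above, without the markers of kidney tubules and dividing cells, 0 were called by limma between any pair of inputs. Of these, 6, 4 and 5 had an unadjusted limma p under 0.05 for 3 against 10, 0.3 against 10 and 0.3 against 3 ng. That level was passed by 1085, 1714 and 1395 of all 12820 tested genes.

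Ranking all 45037 probe sets other than controls on each array, with rank 1 the brightest, gave positions that do not depend on an array's scale. Actb had a mean rank of 21 in kidney and 17, 22 and 58 in the reference at 0.3, 3 and 10 ng. Gapdh, Ppia and Ywhaz ranked 452 or better on every array: Gapdh averaged 167 in kidney and 151, 172 and 106 in the reference, Ppia 408 in kidney and 366, 377 and 305, and Ywhaz 151 in kidney and 340, 209 and 290. By these probe sets the 4 genes were among the brightest transcripts in both RNAs at every input. Apart from the only one of Ppia, each was chosen as its gene's brightest, which favours a high rank. Some other probe sets ranked much lower. Actb 1436722_a_at averaged 3199 in kidney and 1259 in the reference at 10 ng, and Gapdh 1447999_x_at 7328 and 7164. Ywhaz 1416103_at averaged 1358 and 1782 there, but Ywhaz 1448218_s_at 389 and 281.

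By the probe sets followed, all genes but Actb and Gapdh differed more in mean rank between kidney and the reference at 10 ng than between inputs. The margin was small for Ppia, whose mean rank changed by 103 in kidney and by 72 at 3 against 10 ng. For Ywhaz it was smaller still, with -139 in kidney and 131 at 0.3 against 3 ng. Pgk1 had a mean rank of 1187 in kidney and 492, 468 and 413 in the reference at 0.3, 3 and 10 ng, and Tubb5 had 1586 in kidney and 317, 323 and 347. Gusb averaged 12621 in kidney and 5784, 6028 and 5782 in the reference, a difference of -15.18 percentile points in kidney against the reference at 10 ng. Hprt averaged 4616 in kidney and 4279, 3433 and 2656 in the reference, so its rank at 0.3 ng was nearer to that of kidney than to that of the reference at 10 ng.

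Tbp averaged 9709 in kidney and 8610, 8224 and 8677 in the reference, and its arrays overlapped throughout. In percentile points the differences between kidney and the reference at 10 ng were 0.08 for Actb, -0.13 for Gapdh, -0.23 for Ppia, 0.31 for Ywhaz, -1.72 for Pgk1, -2.29 for Tbp, -2.75 for Tubb5 and -4.35 for Hprt. These values are for the representatives and the shared probe sets that stand in for Gapdh and Ppia, and other probe sets can differ. Actb 1436722_a_at differed by -4.31 points, Tubb5 1416256_a_at by -15.84 and Gusb 1430332_a_at by 1.51. The other Pgk1 probe sets stayed near their representative, at -2.09 and -2.20. A percentile point covers a wider range of signals among the brightest probe sets than among dim ones, so these differences are not fold changes.

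**Figure D4:**
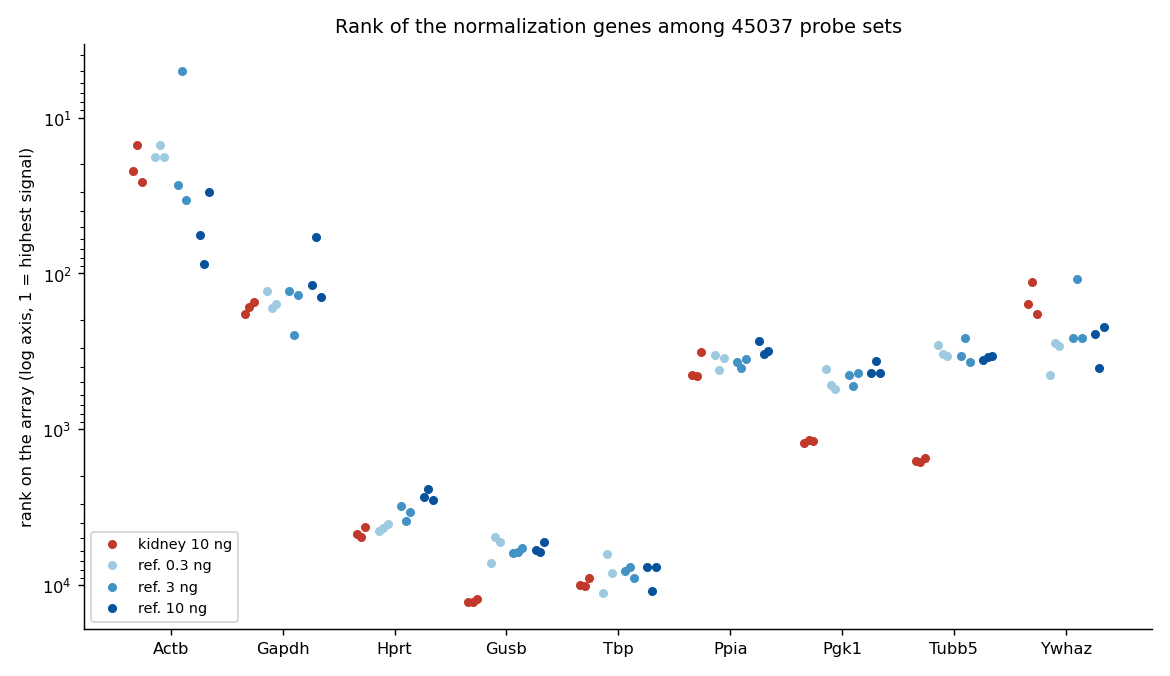
Rank of each gene's representative or brightest shared probe set by signal among 45037 probe sets on each array. The axis is a log axis with rank 1 as the brightest. Points are arrays of kidney at 10 ng and the reference at 0.3, 3 and 10 ng. Every kidney array of Tubb5, Pgk1 and Gusb ranks below every reference array, and Hprt shifts between the reference inputs.

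The SD of log2 signals over all 12 arrays, for 1 probe set a gene on the deposited scale, put the genes in an order. It was lowest for Ywhaz at 0.119, then 0.178 for Ppia, 0.252 for Actb, 0.267 for Gapdh, 0.367 for Pgk1, 0.399 for Hprt, 0.474 for Tbp, 0.554 for Tubb5 and 0.984 for Gusb. The median over all tested probe sets was 0.827, and 0.45 over the 25% with the highest signals. Only 0.337% of tested probe sets had a smaller SD than Ywhaz, against 5.12% for Actb and 60.2% for Gusb. The order rests on the probe set followed. Over the same arrays the SD was 0.641 for Actb 1436722_a_at, 0.369 for Ywhaz 1416103_at and 1.36 for Tubb5 1416256_a_at. It was lower than that of the probe set followed for Gusb 1430332_a_at (0.729) and Gapdh 1447999_x_at (0.238). Bright probe sets vary less on a log scale, and 12 arrays of 2 RNAs are not 12 independent samples. This order is therefore a description with no test.

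Between kidney and the reference at 10 ng alone, the same probe sets of Ywhaz and Actb were the steadiest with SDs of 0.0607 and 0.116. Gusb varied most with 1.19. The first places depend on the scaling. With median-centred arrays the log2 fold change in kidney was 0.21 for Ywhaz, 0.06 for Actb and -0.02 for Ppia. Over the 9 reference arrays, where only input changed, the lowest SDs were 0.115 for Ywhaz, 0.123 for Pgk1, 0.128 for Ppia and 0.157 for Tubb5, and the highest were 0.377 for Hprt and 0.501 for Tbp. Tubb5, which fell in kidney, was thus among the steadiest across inputs, while Gusb, at 0.275, was steadier there than Hprt and Tbp only.

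Ratios between pairs of these genes within an array are free of any scale factor. Over the 9 reference arrays the tightest pair was Ppia and Pgk1, with an SD of their log2 ratio of 0.051. Over kidney and the reference at 10 ng it was Actb and Ppia with 0.0807, and over all 12 arrays Gapdh and Ppia with 0.111. The loosest were Gusb and Ywhaz, at 1.17 over kidney and the reference at 10 ng, and Gapdh and Tbp, at 0.657 over the reference arrays.

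The mean SD of a gene's log2 ratios to the other 8 gave another order. Over kidney and the reference at 10 ng it was lowest for Pgk1 with 0.343, followed by Ppia with 0.36 and Gapdh with 0.363, and highest for Gusb with 0.928. Over the reference arrays it was lowest for Ppia with 0.237 and highest for Hprt and Tbp with 0.502 and 0.555. Ywhaz, steadiest by its own SD, had 0.45 over kidney and the reference at 10 ng, since 7 of the 8 genes set against it had a log2 fold change of -0.26 or below in kidney. When the probe sets of each gene were averaged, Actb came first over kidney and the reference at 10 ng and Tubb5 came last, so this order rests on the probe set chosen.

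**Figure D5:**
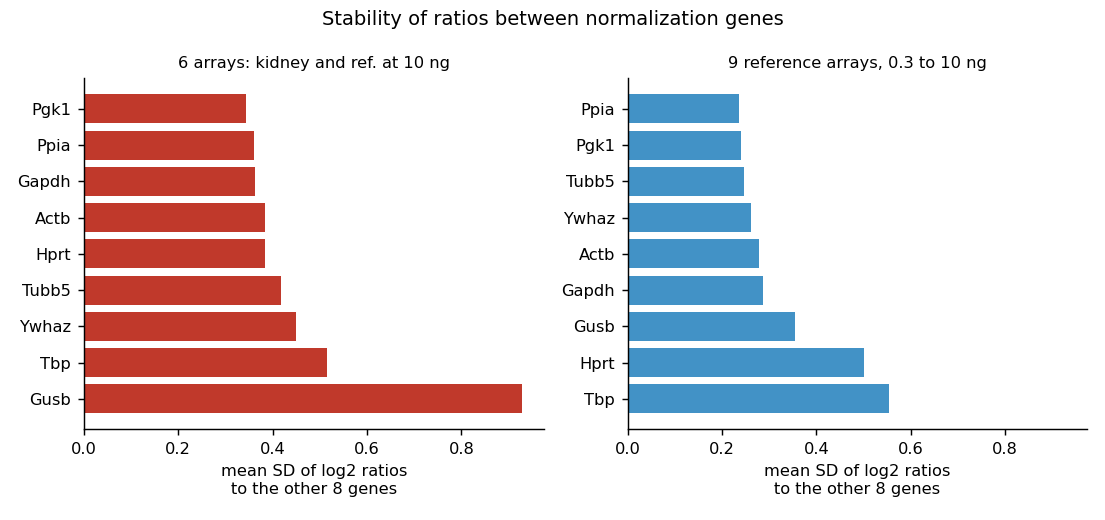
Mean SD of the log2 ratios of each gene to the other 8, over kidney and the reference at 10 ng (6 arrays) and over the 9 reference arrays; a smaller value means steadier ratios. Gusb has the highest value in the first set at 0.928, and Tbp in the second at 0.555.

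Scaling each array to 1 of these genes, by its representative or brightest shared probe set, shows how far the choice moves a comparison of all transcripts. As deposited, 4839 tested probe sets were at least 2-fold higher in kidney than in the reference at 10 ng and 8192 at least 2-fold lower, so that 37.1% of those changed were higher. Scaled to Ywhaz, Actb, Ppia, Gapdh or Tbp, that share was 38.2%, 44.1%, 47.0%, 52.4% and 53.2%. Scaled to Pgk1, Hprt or Tubb5, it was 66.0%, 72.7% and 77.6%. Scaled to Gusb, it was 94.5%, with 19817 probe sets higher and 1148 lower. The other probe sets of a gene were not used for scaling, and the share rests on that choice too. Actb 1436722_a_at had a log2 fold change of -1.11, near the -1.07 of the Tubb5 representative. Gusb 1430332_a_at had -0.11, against -2.16 for the Gusb representative.

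At 0.3 against 10 ng, 17.5% of the probe sets changed at least 2-fold were higher at 0.3 ng as deposited. Scaling to Hprt turned this to 79.6%, with 6995 higher and 1789 lower, whereas scaling to Actb gave 4.25%, with 417 higher and 9392 lower. The other 7 genes gave shares between 6.65% and 21.8%. Without the filter on low signals the share was 26.8% as deposited, 85.6% scaled to Hprt and 6.34% scaled to Actb, and between 10.5% and 33.0% for the other 7. At 3 against 10 ng the median log2 fold change of all tested probe sets lay between -0.14 and 0.12 for 8 of the genes and at 0.42 for Hprt.

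On the deposited scale, other transcripts were steadier than the 9 genes on these arrays. The 10 tested genes with the smallest SD over all 12 arrays were Stt3b, Wnk1, Brk1, Tram1, Tmem87b, St13, Pip4p2, Zfp664, Itga6 and Ddx6, with SDs between 0.0501 and 0.0727. Stt3b, which encodes a catalytic subunit of the enzyme that attaches N-glycans, had signals between 7271 and 8039. By the same measure Ywhaz held place 72 of 12820 genes, Actb 913, Pgk1 2181, Hprt 2587, Tbp 3464, Tubb5 4414 and Gusb 8372. The 10 genes were picked as the extremes of 12820 on these same arrays, so their SDs are no estimate for other samples. These SDs and places also rest on the scaling. Median centring moved the median log2 fold change of all tested probe sets from -0.34 to -0.09 in kidney. At 0.3 against 10 ng it moved that median from -0.23 to 0.20.

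The gene nearest to each of the 9 in its pattern over the 12 arrays was found by the Euclidean distance of mean-centred log2 signals. Gapdh was nearest to Pfdn5 at a distance of 0.147, Actb to Rpf2 at 0.15, Ywhaz to Rab6a at 0.189, Pgk1 to Rpl6 at 0.191, Ppia to Sod1 at 0.207 and Tubb5 to Slc7a1 at 0.236. Hprt lay further from its nearest, Psmg3, at 0.438, as did Gusb from Ifrd1 at 0.478 and Tbp from Eftud2 at 0.788. Ifrd1 averaged 842 in kidney, against 3720 in the reference at 10 ng, a log2 fold change of -2.14, beside -2.16 for Gusb. Each nearest gene was picked from 12820 on these same arrays, so a similar fold follows from the choice.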

How the data were processed

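The deposited values are intensities on a linear scale, with 1 value for each probe set on each array, and the values show that every array's 2% trimmed mean is 500. The labels' protocols give no summarisation, software or amplification. Groups, inputs and replicate numbers came from the sample titles.

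Deposited values were turned to log2(value + 3.9), the pseudocount being the 10th percentile of positive values, so folds of low signals are understated. Of 45037 probe sets other than 64 controls, 27022 were tested, those whose highest group mean of log2 values lay above the 40th percentile (a signal of 65.4). As background served a signal of 33.65, under which 95% of the values of 27 control probe sets for Bacillus genes lay. A fold against a group under it on every array is a lower bound.

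Each comparison was fitted on the 6 arrays of its groups with limma 3.58.1 (R 4.3.3, functions lmFit and eBayes), two-sided, with Benjamini-Hochberg adjustment over all tested probe sets and a threshold of 0.05. Each fit takes 1 variance for both groups, although the 0.3 ng arrays spread more. Intervals are limma's 95% intervals. Differences of control and probe set ratios were given two-sided exact permutation tests. Tables were handled in Python 3.11.15 with pandas 2.3.3, NumPy 2.4.6 and SciPy 1.17.1, and the fits were tested on simulated data.

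Symbols came from GEO's platform annotation, in which 34945 probe sets carried 1 symbol, 932 several and 9160 none. Through gene IDs 34741 were matched to RefSeq and 0 symbols changed. A representative is, of the probe sets that name only that gene, the one with the highest mean log2 signal over 12 arrays. Of the 19 probe sets naming 1 of the 9 genes alone 18 passed the filter, and 3 of the 4 shared ones. Named beside the 9 genes are up to 4 called genes of a list with the largest change, the 10 with the smallest SD and the nearest to each of the 9. The genes and lists were chosen with earlier results of these data known.

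Same-numbered arrays of different groups deviated from their group means with correlations between -0.0629 and 0.0118, so replicate numbers were not taken as pairs. The alternatives tried were the pseudocount, the filter, the scaling, 1 fit of all arrays, a replicate block, group variances, the mean of a gene's probe sets and leaving out each array.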

Additional observations from a re-analysis of the deposited data

How the results depend on the processing

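The count of normalization genes called in kidney against the reference at 10 ng was 4 under the main settings and 4 or 5 under every alternative run. Between inputs it stayed 0, except 1 at 0.3 against 10 ng with all 12 arrays in 1 fit. With the replicate number as a block the kidney count was 4 and the input counts 0. The block moved 1 call among the probe sets of these genes it was run on, that of Pgk1 1438640_x_at (limma adjusted p = 0.0765), and same-numbered arrays did not deviate together. The number of arrays, and low signals for Gusb and Tbp, limit what can be seen, most of all at 0.3 ng.

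The results that changed sign were not called on either side, and the cause was not tested. Values are log2 fold changes, with ranges for leaving out 1 array in turn. In kidney against the reference at 10 ng, median-centred arrays gave 0.06 for Actb 1419734_at, 0.12 for Gapdh 1447999_x_at, 0.13 for Gusb 1430332_a_at, and 0.21 and 0.19 for Ywhaz 1436971_x_at and 1439005_x_at. Quantile normalization gave 0.12 for that Actb probe set, 0.15 for that of Gusb, and 0.21 and 0.11 for those of Ywhaz. The mean of its probe sets gave 0.06 for Tbp, and that mean takes in 1426470_at, which lay under background on 11 of 12 arrays. Leaving out arrays gave Gusb 1430332_a_at a range of -0.37 to 0.09.

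At 3 against 10 ng, median centring gave -0.00 for Tbp and -0.05 for Tubb5, the mean of probe sets gave 0.02 for Pgk1 and -0.08 for Tubb5, and the ranges were -0.21 to 0.25 for Tbp and -0.07 to 0.02 for Pgk1. At 0.3 against 10 ng, median centring gave 0.41 for Gusb and 0.35 for Tbp, the mean of probe sets gave 0.35 for Gusb, and quantile normalization gave -0.08 for Gapdh, 0.02 for Gusb, 0.04 for Tbp, -0.07 for Ppia, -0.09 for Pgk1 and -0.07 for Ywhaz. The ranges there were -0.20 to 0.26 for Gusb and -0.48 to 0.33 for Tbp. At 0.3 against 3 ng, median centring gave 0.14 for Hprt and 0.35 for Tbp, quantile normalization gave -0.02 for Pgk1 and -0.19 for Ywhaz, and the ranges were -0.08 to 0.39 for Gusb and -0.58 to 0.24 for Tbp.

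Of the control ratios, the differences that changed sign when 1 array was left out were all small on the log2 scale. For the Actb 3′ to 5′ ratio at 3 against 10 ng the range was -0.06 to 0.03, and for the Actb 3′ to middle ratio at 0.3 against 3 ng -0.05 to 0.04. For Gapdh, the 3′ to 5′ ratio ranged from -0.01 to 0.02 in kidney against the reference and from -0.03 to 0.00 at 3 against 10 ng, and the 3′ to middle ratio from -0.02 to 0.01 in kidney against the reference. Averaging probe sets moved the mean SD of ratios over kidney and the reference at 10 ng to 0.444 for Gusb and 0.877 for Tubb5, and over all 12 arrays to 0.535 and 0.755. Without the filter, the share higher in kidney was 58.1%, 59.1%, 73.7%, 80.3% and 84.7% after scaling to Gapdh, Tbp, Pgk1, Hprt and Tubb5. At 0.3 against 10 ng it was 13.4%, 14.5%, 15.3%, 16.8%, 28.3% and 33.0% after scaling to Gapdh, Ywhaz, Ppia, Pgk1, Gusb and Tbp.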
